A study of Oncorhynchus tshawytscha with 15 samples.

Results

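The 200 contigs described here are those whose share of the reads varied least over the 15 gill libraries of juvenile Chinook salmon (Oncorhynchus tshawytscha), out of 183740 contigs in all. They were chosen by the coefficient of variation (CV, the SD over the mean) of CPM (the reads of a contig per 1000000 reads counted in that library). A contig was eligible if it was 300 to 5000 bp long, had a mean of at least 20 CPM, had at least 95% of its reads aligned to that contig alone, and was not among the 100 most abundant contigs of the 12° control group by RPKM. Length left 145128 contigs, the CPM minimum 8488, the share of unique reads 8137, and the removal of the most abundant contigs 8091. The 200 with the lowest CV were taken, and the remaining 7891 eligible contigs are given beside them. The choice used the values of all 15 libraries, so steadiness over those libraries is a description and was not tested.

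The study looked for transcripts that respond to a short bath in warmer water. Fall-run fish hatched from Merced River Hatchery eggs, reared at 12° and sampled 5 months after hatching, were held for 3 hr at 15°, 18°, 21°, or 25° and then recovered for 1 hr at 12°, while the control fish were handled alike and stayed at 12°. Each group consisted of 3 libraries, each a pool of RNA from the gill arches of 11 fish. Some fish of the 25° group stopped responding or died in the warm bath, and their gills were taken at once. Fish taken at once did not have the recovery at 12°, so the 25° pools can hold fish with and without it. A pool hides the variation between fish, so the p-values given here set a difference between groups against the spread between pools. Replicates were run on consecutive days, so that spread can also hold differences between days.

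The gill is in direct contact with the water, and it carries out gas exchange, ion transport, and the excretion of nitrogenous waste. Cells that meet heat induce chaperones and other protective transcripts while many other transcripts fall, so the composition of the RNA pool shifts. Transcripts that hold their level through such a shift are the kind used as references in qPCR, where a target is read against them. A contig is an assembled stretch of transcript sequence. The deposited table identifies contigs by number without gene names, 0 of them could be matched by ID to the RefSeq gene table, and no gene function is therefore given for any contig below. For the same reason the labelled tissue could not be checked against gill markers. Contig names carry 1 of 2 prefixes, and 152 of the 200 steady contigs (76%) had the same prefix as 75.9% of the other eligible contigs.

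The libraries held 58654252 to 90869450 reads, and a steady contig had 1052 to 88438 reads in a library, with a median of 2821. The 25° libraries stood apart from the others in composition. TMM, which scales libraries so that the bulk of contigs stays level between them, gave factors with a mean of 1.05 ± 0.033, 1.07 ± 0.023, 1.05 ± 0.020, 1.04 ± 0.039, and 0.820 ± 0.030 at 12°, 15°, 18°, 21°, and 25° (SD, n = 3 each). The 10 most abundant contigs of a library took 3.84% ± 0.31, 3.77% ± 0.35, 3.78% ± 0.22, 3.75% ± 0.037, and 7.95% ± 1.1 of its reads at the same temperatures (SD, n = 3 each). Because steadiness is judged here against library totals, the comparisons that touch 25° are given on the scale of library totals, which is that of CPM, and on the TMM scale. In gill as a whole, fewer cells of a type and less RNA per cell cannot be told apart.

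The CV of the 200 steady contigs ranged from 3.40% to 7.06%, with a median of 6.36%, and 24 of them lay below 5%. In the other eligible contigs it ranged from 7.08% to 214%, with a median of 18.7%. Between its highest and its lowest library a steady contig differed 1.13-fold to 1.40-fold, with a median of 1.25-fold, against a median of 1.98-fold in the other eligible contigs. The threshold did not fall in a gap: contig_63124 and contig_1501616 were just inside at 7.058% and 7.060%, and contig_73431 and contig_60750_denovo_contigs just outside at 7.082% and 7.083%.

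The steadiest contig was contig_1157 (1928 bp), which had a CV of 3.40%. It had 856, 928, and 866 CPM at 12°, then 910, 903, and 935 at 15°, and 925, 901, and 910 at 18°. At 21° it had 904, 956, and 910 CPM, and at 25° it had 969, 869, and 918 CPM. The 25° libraries overlapped the 12° libraries, and the highest and lowest of the 15 were a 25° and a 12° library.

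Contig_62531 (3438 bp) came next with a CV of 3.79%, at a level more than an order of magnitude lower. It had 31.9, 33.4, and 31.0 CPM at 12°, then 32.7, 35.5, and 34 at 15°, and 33.7, 32.7, and 33.6 at 18°. At 21° it had 35.6, 34.6, and 34 CPM, and at 25° it had 33.2, 34.8, and 32.7 CPM. All 3 libraries at 21° lay above all 3 at 12°, while the 25° libraries overlapped them.

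Contig_71424 (767 bp) had a CV of 3.84%. It had 522, 463, and 487 CPM at 12°, then 475, 486, and 503 at 15°, and 504, 467, and 496 at 18°. At 21° it had 480, 471, and 453 CPM, and at 25° it had 483, 492, and 508 CPM. The 25° libraries were within the range of the 12° libraries, and the 21° group was the lowest of the 5 for this contig.

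**Figure D1:**
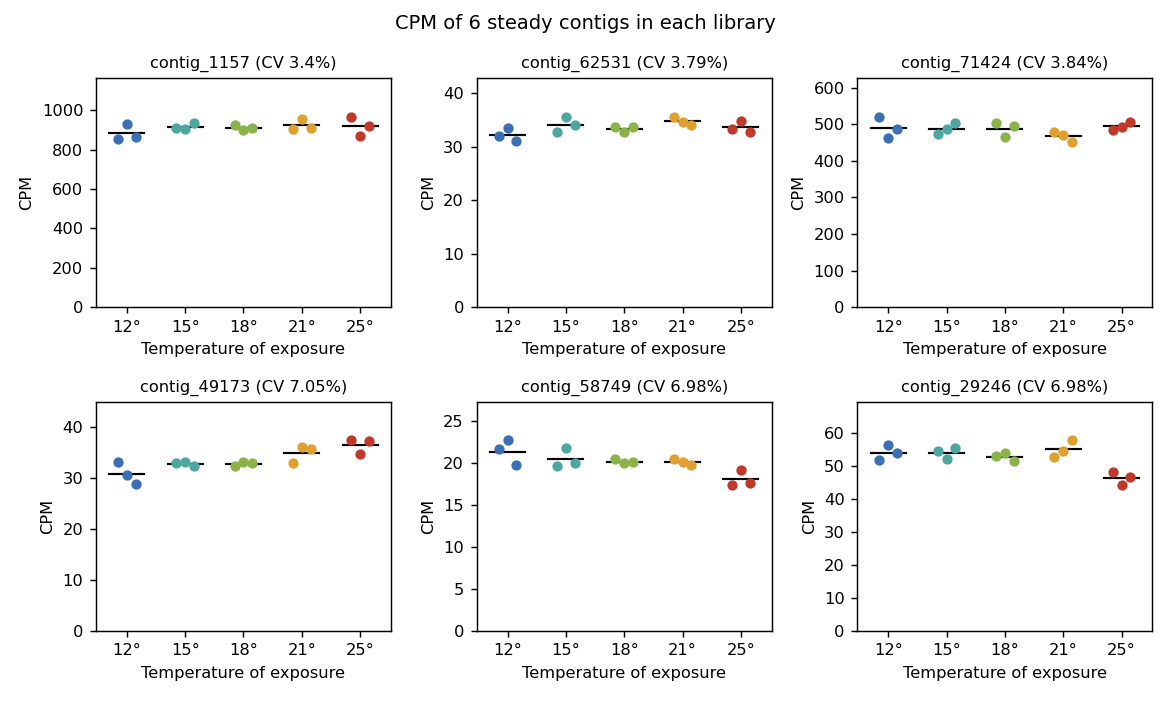
CPM (y axis, from 0) of 6 steady contigs in each of the 15 libraries, by temperature of exposure (x axis), with points for the 3 libraries of a group and a line for their mean. The upper row holds the 3 contigs of lowest CV (3.40% to 3.84%), and the lower row holds contig_49173, higher at 25°, and contig_58749 and contig_29246, lower at 25°, all 3 chosen by their fold change or CV on the TMM scale.

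The other 7 of the 10 steadiest contigs had CVs of 3.96% to 4.50%, mean levels of 20.9 to 198 CPM, and lengths of 682 to 3825 bp. They were contig_1420365, contig_48463, contig_82700, contig_59314, contig_56776, contig_48796_denovo_contigs, and contig_47859. The 10 steadiest contigs therefore included short and long contigs at low and high levels.

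The mean level of the steady contigs ran from 20.01 to 959 CPM, with a median of 38.2 CPM against 31.9 CPM in the other eligible contigs. The highest of the others had 2773 CPM. Of the 200, 32 (16%) had a mean of at least 100 CPM, against 6.81% of the others. The share of eligible contigs that were steady was 1.80% at 20 to 25 CPM, 2.11% at 25 to 35, 2.36% at 35 to 50, 3.06% at 50 to 100, 4.46% at 100 to 200, and 7.06% at 200 CPM and above. The most abundant of the 200 was contig_17176 (1435 bp), which had a mean of 959 CPM and a CV of 6.13%. It had 920 ± 84 CPM at 25° and 999.1 ± 68 CPM at 12° (SD, n = 3 each), and the libraries of the 2 groups overlapped. Contig_1157 came next with a mean of 911 CPM, followed by contig_619 (2245 bp) with 893 CPM and a CV of 6.65%.

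Counting error becomes smaller as reads increase, and it was smaller than the measured CV in all 200 contigs. Counting alone, taken as Poisson, would give the steady contigs a median CV of 1.89% and the other eligible contigs 2.06%. The measured CV was 1.72 to 17.1 times the counting value in the steady contigs, with a median of 3.26 times, against a median of 9.66 times in the others. Even for the steady contigs, the spread over the 15 libraries, which includes differences between temperatures, was larger than the reads alone would give.

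**Figure D2:**
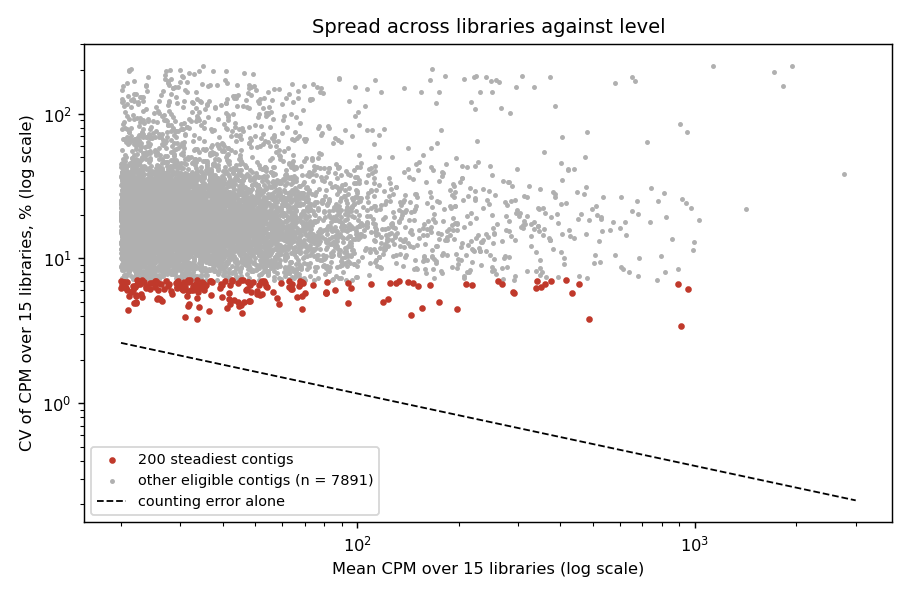
CV of CPM over the 15 libraries in % (y axis, log scale) against mean CPM (x axis, log scale) for the 200 steady contigs and the 7891 other eligible contigs, with a dashed line for counting error alone. The 200 steady contigs, all with a CV at or below 7.06%, run from 20.01 to 959 CPM and lie above the line.

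Length and read uniqueness, which the rule used only as limits, were close to those of the other eligible contigs. The median length was 1812.5 bp, against 1754 bp in the others. The shorter and the longer classes held somewhat larger shares of the steady contigs, with 29% of them below 1000 bp against 24.9% of the others, and 28% at 3000 bp or more against 20.5%. The shortest, contig_29889 (315 bp), had a mean of 211 CPM and a CV of 6.66%, with 190 ± 14 CPM at 25° and 217 ± 4.8 CPM at 12° (SD, n = 3 each). The longest, contig_469162 (4829 bp), had a mean of 22.2 CPM and a CV of 5.52%.

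As a group the steady contigs held a nearly constant share of the library. They took 1.65% ± 0.051, 1.66% ± 0.037, 1.67% ± 0.032, 1.66% ± 0.044, and 1.60% ± 0.051 of the reads at 12°, 15°, 18°, 21°, and 25° (SD, n = 3 each). Relative to its own mean CPM over the 15 libraries, the median steady contig stood lowest in the library of 25° replicate 1, at -0.08 on the log2 scale, and highest in 21° replicate 2, at 0.06. The median of the other eligible contigs was at -0.44, -0.36, and -0.26 in the 3 libraries at 25°, and between -0.003 and 0.10 in the libraries of the other groups. On the TMM scale the median steady contig was at 0.17, 0.31, and 0.26 in the 25° libraries, and between -0.15 and 0.03 in the libraries of the other groups. The median of the other eligible contigs was at -0.18, -0.01, and -0.004 in the 25° libraries on that scale, and between -0.09 and 0.08 elsewhere. At 25° the steady contigs were level and the others low in CPM, while on the TMM scale the steady contigs were high and the others nearer to level. The choice had used the CPM values.

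**Figure D3:**
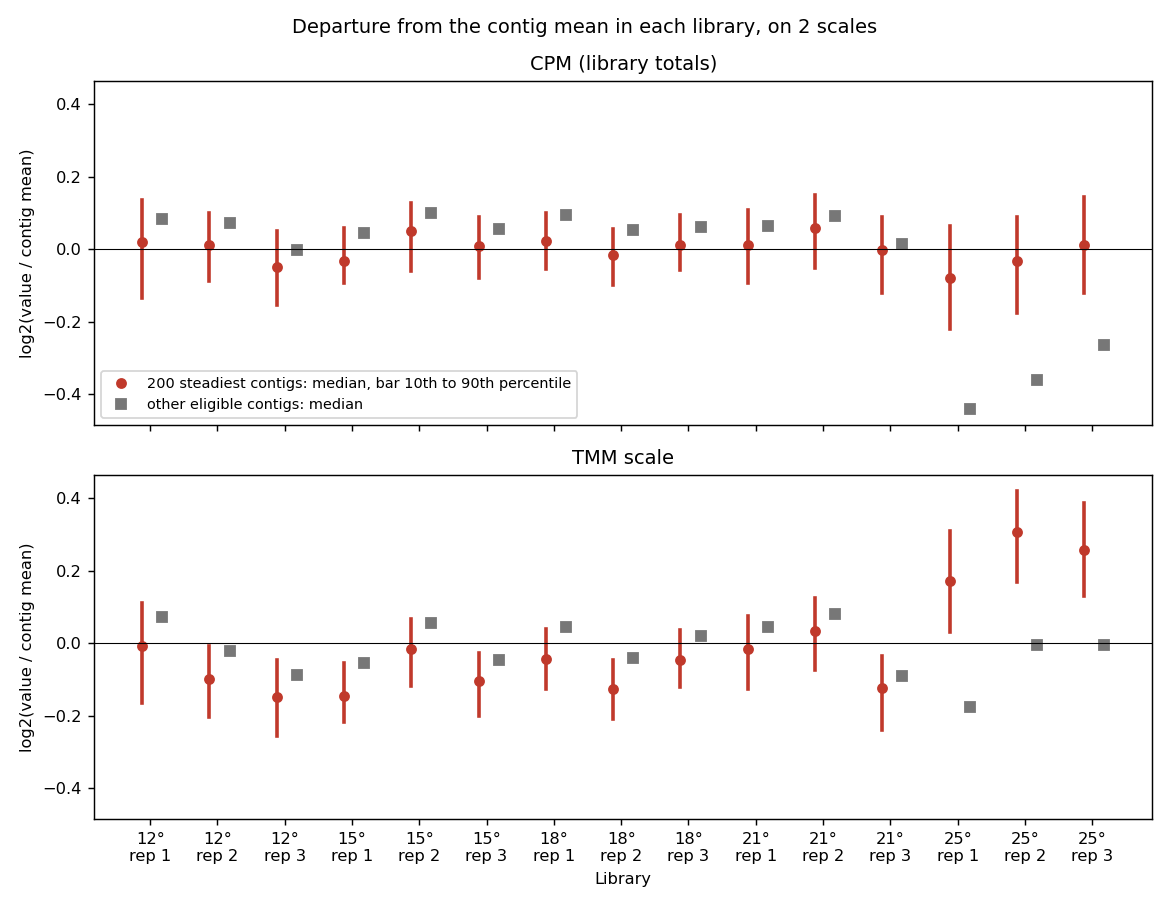
Log2 of the value of a contig over its own mean (y axis) in each of the 15 libraries (x axis), in CPM (upper) and on the TMM scale (lower). Circles are the median of the 200 steady contigs with bars for the 10th to 90th percentile, and squares are the median of the 7891 other eligible contigs. In the 25° libraries the circles are at -0.08, -0.03, and 0.01 in CPM and at 0.17, 0.31, and 0.26 on the TMM scale.

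The group means of the steady contigs, within the narrow range left to them, are a description, since the same libraries chose the contigs. In CPM, the 25° group had the lowest mean CPM of the 5 for 96 contigs, the 12° group for 44, the 21° group for 22, the 18° group for 20, and the 15° group for 18. The 21° group had the highest mean for 64 contigs and each other group for 30 to 40. For comparison, 71.0% of the other eligible contigs were lowest at 25°, and 22.4% were highest at 21°. Of the variance over the 15 libraries, a median of 41.3% lay between temperatures in the steady contigs, against 85.3% in the others, where libraries with no difference between groups would average 28.6%. The share was 75.6% in the steady contigs and 68.2% in the others when CPM was scaled by TMM. Single libraries weighed on this: 25° replicate 1 was the lowest of the 15 for 64 steady contigs, 12° replicate 3 for 38, and 25° replicate 2 for 31. These were 32%, 19%, and 15.5% of the steady contigs, against 49.0%, 11.7%, and 17.3% of the other eligible contigs.

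A low CV over all 15 libraries requires a low CV among the 3 libraries of a group, so the values within groups are part of what the rule used. In CPM, the median CV among the 3 libraries of a group was 5.51%, 4.39%, 3.24%, 4.71%, and 6.05% at 12°, 15°, 18°, 21°, and 25°. In the other eligible contigs it was 8.31%, 7.08%, 4.98%, 7.37%, and 10.6%. In CPM the 18° pools were the closest to each other and the 25° pools the farthest apart in both sets. Scaled by TMM, the steady contigs had a median of 6.31%, 5.71%, 4.26%, 6.73%, and 6.39% at the same temperatures, and the others 9.83%, 8.28%, 5.69%, 9.40%, and 11.3%.

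For 15°, 18°, 21°, and 25° in turn, the libraries were set against those of the 12° control group by edgeR's quasi-likelihood test on the TMM scale, fitted on all 155951 contigs with enough reads, and all 200 steady contigs were among those tested. The study's thresholds are an adjusted p (Benjamini-Hochberg) below 0.01 and a fold change above 2. At 15°, 18°, and 21° edgeR called 0 steady contigs in either direction at these thresholds, with a background over all contigs tested of 0%, 0.0269%, and 0.53% upregulated, and of 0%, 0%, and 0.0558% downregulated. At 25° edgeR again called 0 in either direction, against 8.61% of all contigs upregulated and 6.05% downregulated. DESeq2 also called 0 in either direction at each of the 4 temperatures. A fold change of 2 is larger than the largest fold between any 2 libraries of a steady contig in CPM, so the choice fixed this count and nothing is read from it.

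The counts by p-value alone also rest on libraries that chose the contigs, and a low spread was required of each, so they are given with their background as a description. Without the fold threshold, edgeR passed 0 steady contigs in either direction at 15°, 18°, and 21° at an adjusted p below 0.01. The background over all contigs tested at these 3 temperatures was 0%, 0.0269%, and 0.623% higher, and 0%, 0%, and 0.0769% lower. Of the other eligible contigs, 0%, 0.291%, and 3.41% passed as higher, and 0%, 0%, and 0.203% as lower. At an unadjusted p below 0.05, 0 steady contigs were higher and 0 lower at 15°, against 1.23% and 1.22% of all contigs tested. At 18° 1 was higher and 0 lower, against 5.75% and 4.92%, and at 21° 13 were higher and 0 lower, against 9.48% and 6.57%. In the other eligible contigs the shares were 0.735% and 0.570% at 15°, 13.1% and 3.28% at 18°, and 21.7% and 6.16% at 21°. At 25° the adjusted p alone passed 16 steady contigs as higher (8%), against 10.3% of all contigs tested and 18.6% of the other eligible contigs, and 0 as lower, against 8.02% and 16.0%. At an unadjusted p below 0.05, 132 were higher and 0 lower at 25°. The background was 20.3% and 22.6% of all contigs tested, and 25.9% and 30.2% of the other eligible contigs. DESeq2 passed 17 as higher and 0 as lower at 25°, also at an adjusted p below 0.01, against 12.6% and 9.89% of all contigs tested. The count of 16 changed in both directions with single libraries left out. It was 7, 0, and 0 without 25° replicates 1, 2, and 3, and 31, 0, and 0 without 12° replicates 1, 2, and 3. It was also 0 with the replicate number as a block.

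The direction at 25° followed the scale. On the TMM scale, the log2 fold change at 25° against 12° had a median of 0.32 over the steady contigs and ran from 0.12 to 0.60, above 0 in all 200, while the median over all contigs tested was -0.09. With library totals it had a median of -0.03 and ran from -0.24 to 0.24, above 0 in 77, while the median over all contigs tested was -0.44. The distance between the steady contigs and the median contig was about the same on either scale, and the scale placed the zero. The ratio of the mean TMM factors of the 12° and 25° groups is 0.36 on the log2 scale, close to the shift of the steady contigs from one scale to the other. A factor moves all contigs of a library alike, so this match and the equal distance follow from the scaling, and nothing is read from them. With library totals edgeR passed 0 steady contigs as higher and 0 as lower at 25° at an adjusted p below 0.01, against 6.98% and 17% of all contigs tested. The shares of the other eligible contigs were 13.4% and 39.3%.

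At the other temperatures the scale made a smaller difference. At 15°, 18°, and 21° the log2 fold change was above 0 in 96, 143, and 157 steady contigs on the TMM scale. With library totals it was above 0 in 115, 119, and 111. On the TMM scale the median log2 fold change of the steady contigs was -0.01 at 15°, 0.04 at 18°, and 0.07 at 21°, and with library totals it was 0.01, 0.02, and 0.02. Over all contigs tested the median was -0.01, -0.03, and -0.02 on the TMM scale, and 0.01, -0.05, and -0.07 with library totals. The other eligible contigs were nearer to the steady contigs at 18° and 21°. Their median was 2.8e-05, 0.04, and 0.05 on the TMM scale, and 0.02, 0.02, and 0.004 with library totals.

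**Figure D4:**
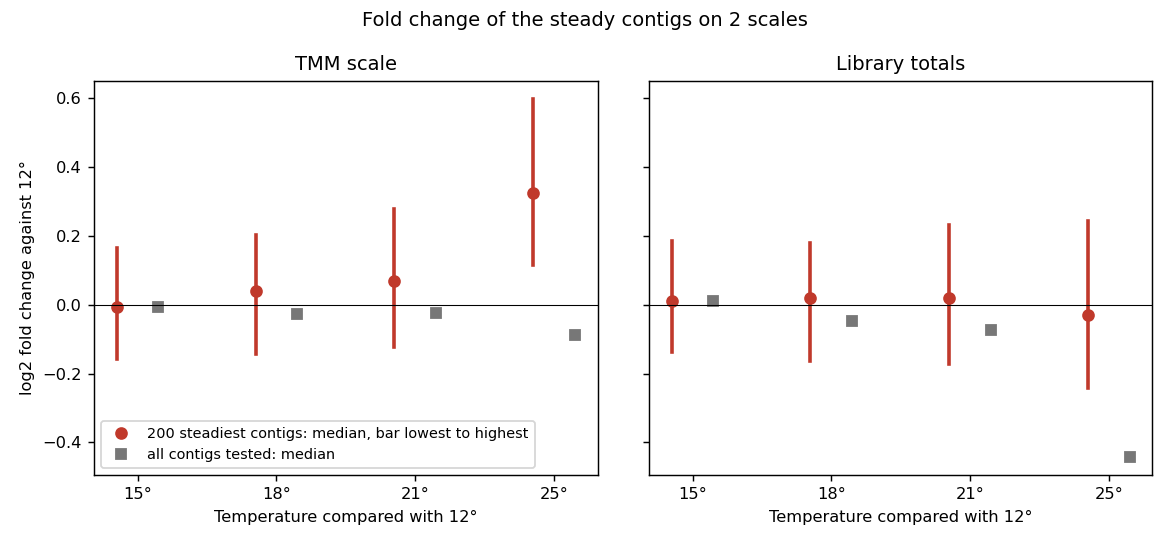
Log2 fold change against the 12° control group (y axis) at 15°, 18°, 21°, and 25° (x axis), on the TMM scale (left) and with library totals (right). Circles are the median of the 200 steady contigs with bars from the lowest to the highest, and squares the median of all 155951 contigs tested: at 25° the steady contigs have a median of 0.32 on the TMM scale and -0.03 with library totals.

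The contigs at the ends of the range of fold changes at 25° show how small the differences were in CPM. They were picked by fold change from contigs that the same libraries chose, so their p-values are a description. Contig_49173 (3210 bp) had the highest fold change at 25°, with 37.5, 34.8, and 37.3 CPM at 25° against 33.2, 30.6, and 28.8 CPM at 12°. All 3 libraries at 25° lay above all 3 at 12°, and the log2 fold change was 0.60 (SE 0.12, adjusted p = 0.00445, edgeR) on the TMM scale and 0.24 with library totals. Contig_1382967 and contig_520774 followed with log2 fold changes of 0.59 and 0.57 on the TMM scale.

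Contig_58749 (1185 bp) was at the other end, with 17.4, 19.1, and 17.7 CPM at 25° against 21.6, 22.7, and 19.7 CPM at 12°. All 3 libraries at 25° lay below all 3 at 12° in CPM, yet on the TMM scale the log2 fold change was 0.12 (SE 0.13, adjusted p = 0.532, edgeR), and with library totals it was -0.24. Contig_72679 and contig_29246 came next with 0.12 and 0.13 on the TMM scale, and -0.24 and -0.22 with library totals.

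In CPM, the libraries at 25° lay all above the 12° libraries in 18 steady contigs and all below in 32, against 18% and 57.2% of all eligible contigs. Scaled by TMM, they lay all above in 167 and all below in 0, against 27.9% and 31.4%. In CPM at 21° the counts were 31 above and 10 below, against 23.6% and 13.5%. At 18° they were 21 and 13, against 17.9% and 7.89%, and at 15° they were 12 and 5, against 5.65% and 1.93%. The steady contigs with groups apart at 15°, 18°, and 21° were therefore more often above than below the 12° control group, as were the eligible contigs as a whole.

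A set chosen without 1 of the temperatures gives values at a temperature that played no part in the CV or in the CPM minimum. The limits on unique reads, over all 15 libraries, and on the most abundant contigs, by RPKM at 12°, were those of the full choice. The same rule was applied to the 12 libraries of the other 4 temperatures, and the mean CPM at the left-out temperature was set against the mean of the other 4 group means. The sets chosen without 12°, 15°, 18°, and 21° shared 157, 163, 181, and 144 contigs with the 200. At the temperature left out, their median log2 ratio was -0.02, 0.01, 0.01, and 0.06. Within 10% of the level at the other temperatures were 177 contigs at 12° (88.5%), 195 at 15° (97.5%), 194 at 18° (97%), and 154 at 21° (77%), against 41.7%, 41.5%, 51.5%, and 56.3% of the other eligible contigs. In these 4 sets, 0 contigs lay beyond 2-fold, against 4.89%, 4.62%, 2.97%, and 1.5% of the others.

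The set chosen without 25° behaved otherwise. It shared 27 of its 200 contigs with the steady contigs, and although every one of its contigs had a CV of at most 4.16% from 12° to 21°, 14 (7%) were within 10% of that level at 25° in CPM, against 10.1% of the other eligible contigs. With the choice and the values on the TMM scale, 55 of 200 were within 10%, against 22.1% of the others, and with DESeq2's size factors 66, against 22.6%. In CPM its median log2 ratio at 25° was -0.49, a level of 0.711 times that at the other temperatures, and it was -0.60, -0.54, and -0.40 in the 3 libraries. The other eligible contigs had a median of -0.47. The medians were -0.24 and -0.10 on the TMM scale, and -0.14 and -0.08 with DESeq2's size factors. In CPM, of the 200, 193 were lower at 25°, and 15 lay beyond 2-fold, against 18.9% of the other eligible contigs. The contigs chosen without 25° were also less spread than the others at that temperature, with a 10th to 90th percentile of -0.96 to -0.16 against -1.16 to 0.37.

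**Figure D5:**
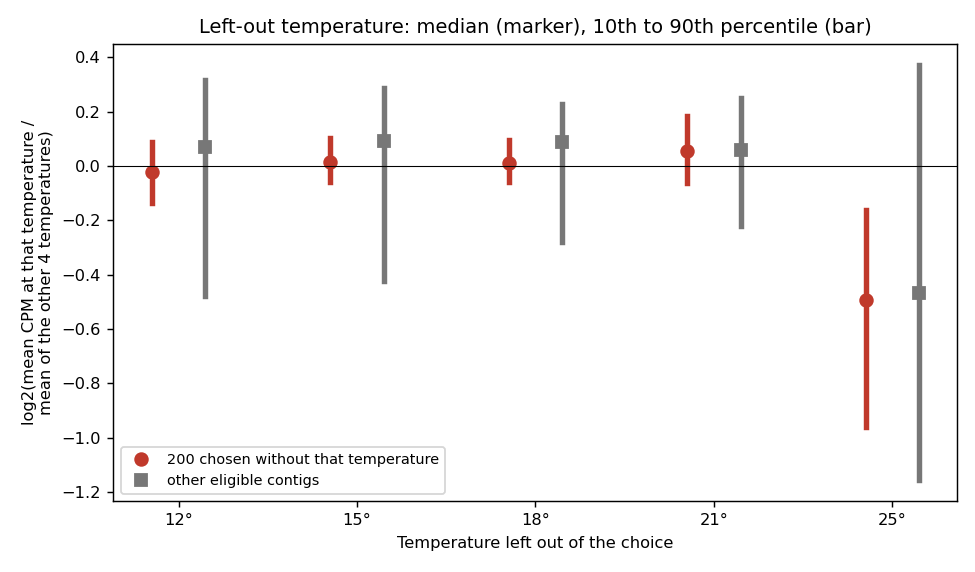
Log2 of the mean CPM at the temperature left out of the choice over the mean of the other 4 temperatures (y axis), by the temperature left out (x axis). Markers are medians and bars the 10th to 90th percentile, for the 200 contigs chosen without that temperature and for the other eligible contigs: both medians lie between -0.02 and 0.09 at 12° to 21°, and at 25° they are -0.49 and -0.47.

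In CPM, the libraries at 25° lay all below the 12° libraries in 180 of the contigs chosen without 25° (90%) and all above in 1, where 57.2% and 18% of eligible contigs did so. Scaled by TMM, the same contigs had 86 below and 26 above, where 31.4% and 27.9% of eligible contigs did so. The eligible contigs in these shares are the 8091 of the full choice, whose CPM minimum used the 25° libraries. The set itself was taken from 8343 contigs eligible without those libraries. The 12° libraries had helped to choose this set, so its range at 12° was narrow by choice. On the TMM scale edgeR passed 29 of the 200 as lower at 25° (14.5%) and 1 as higher (0.5%) at an adjusted p below 0.01, against 8.02% and 10.3% of all contigs tested, and the median log2 fold change was -0.14. With library totals it passed 108 as lower and 0 as higher, against 17% and 6.98% of all contigs tested, and the median was -0.50. Of the eligible contigs other than the 200 steady contigs, 16.0% passed as lower and 18.6% as higher on the TMM scale. Their shares with library totals were 39.3% and 13.4%. The median of the set was therefore below its 12° level at 25° on both scales, by an amount that depended on the scale.

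The contig of that set with the largest fall was contig_7648_denovo_contigs (3014 bp). It had 7.89, 7.92, and 10.8 CPM at 25°, against 22.1 to 25.0 CPM in the 12 libraries from 12° to 21°. The log2 fold change at 25° against 12° was -1.07 (SE 0.15, adjusted p = 0.00051, edgeR, TMM scale). Contig_57568 (1818 bp) had 35.8, 39.4, and 46.0 CPM at 25° against 101 to 114 CPM from 12° to 21°, with a log2 fold change of -1.07 (SE 0.13, adjusted p = 0.000214). These 2 contigs passed both thresholds of the study, after varying by a CV of 3.96% and 4.01% over the other 4 temperatures. No other contig of the set was called downregulated. The background was 6.05% of all contigs tested, and 5.73% of the eligible contigs other than the 200 steady contigs. The 12° libraries had helped to choose these 2 contigs, and they were picked by their fall, so their p-values are a description.

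Contig_529032 (1530 bp) was at the other end of that set. It had 67.5, 76.0, and 69.5 CPM at 25°, against 50.5 to 57.3 CPM in the 12 libraries from 12° to 21°, with all 3 libraries at 25° above all 12 others. The log2 fold change at 25° against 12° was 0.72 (SE 0.12, adjusted p = 0.00158, edgeR, TMM scale). It was the only contig of the set that passed the adjusted p as higher, and its p-value is likewise a description. In all 5 sets chosen without a temperature there were 17 contigs, and all 17 were among the 200 steady contigs.

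Leaving out a replicate number gives values in other pools at the same temperatures. The rule was applied to the 10 libraries of 2 replicate numbers and the CV was taken over the 5 libraries of the left-out number, 1 at each temperature. Here too the limits on unique reads and on the most abundant contigs were those of the full choice. The sets chosen without replicates 1, 2, and 3 shared 129, 133, and 135 contigs with the 200. In the left-out libraries their median CV was 8.46%, 7.23%, and 7.28%, against 21.6%, 19.6%, and 16.6% in the other eligible contigs. The largest CV in the left-out libraries was 20.3%, 21.9%, and 17.8%, which for replicates 2 and 3 is above the median of the others. Below the 10th percentile of the other eligible contigs were 156, 147, and 106 of the 200.

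The choice of scale decided which contigs were steady. When the CPM was scaled by TMM, the 200 steadiest contigs had a CV of at most 6.53%, and 3 of them (1.5% of each set) were among the 200 steadiest in CPM. The steady contigs had a median CV of 11.8% on the TMM scale, with a range of 4.64% to 17.6%, and their median rank there was 2421 of the eligible contigs. The 200 steadiest on the TMM scale had a median CV of 11.3% in CPM and a median rank of 1347. On the TMM scale the 25° group had the highest mean of the 5 in all 200 steady contigs, against 37.1% of the other eligible contigs. With DESeq2's size factors in place of TMM, 2 of the 200 remained.

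The 3 contigs steady on both scales were contig_29246, contig_72679, and contig_67519_denovo_contigs. Contig_29246 (4689 bp) had 48.0, 44.1, and 46.7 CPM at 25° against 51.8, 56.1, and 53.8 CPM at 12°, and on the TMM scale it had 57.4, 56.0, and 55.6 at 25° against 51.1, 52.2, and 50.5 at 12°. The 25° libraries lay all below the 12° libraries on the first scale and all above them on the second. Its CV was 6.98% in CPM and 4.64% on the TMM scale.

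Contig_72679 (1353 bp) had 20.2, 19.8, and 20.7 CPM at 25° against 22.9, 24.9, and 23.8 CPM at 12°, and a CV of 6.71% in CPM and 6.06% on the TMM scale. Contig_67519_denovo_contigs (2320 bp) had 96.4, 97.1, and 102 CPM at 25° against 113, 115, and 109 CPM at 12°, and a CV of 6.62% in CPM and 6.20% on the TMM scale. In both, the 25° libraries lay all below the 12° libraries in CPM. The contigs steady on both scales were thus on the low side of the steady contigs at 25°, where the scales differ. A low CV on both scales requires about that place, so nothing is read from it.

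Reads were divided otherwise at 25° than at 12°. The contigs that edgeR called upregulated at 25° took 29.7% ± 2.7 of the reads at 25° and 5.83% ± 0.14 at 12° (SD, n = 3 each). Their share was 6.08% ± 0.072, 6.99% ± 0.11, and 9.36% ± 0.26 at 15°, 18°, and 21°. Those called downregulated took 1.90% ± 0.17 at 25° and 6.46% ± 0.20 at 12°. At 15°, 18°, and 21° they took 6.28% ± 0.045, 5.78% ± 0.16, and 5.14% ± 0.025. These contigs were called on the same libraries, so the shares are a description. Their part in the position of the steady contigs was not tested.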

How the data were processed

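Gill RNA from pools of juvenile Chinook salmon was sequenced in 15 libraries, 3 at each of 5 temperatures, and samples were grouped by the temperature in their labels. Trimming, de novo assembly, and alignment back to the assembly in CLC Genome Workbench were done by the authors. The deposited counts give total and unique reads for every contig, without normalization. The deposited RPKM values were made by the authors and served only to leave out the most abundant contigs. Of the 98 columns of the table, 34 were used. The other 64 hold repeated values and group means, as well as the authors' fold changes, test statistics, and p-values from Baggerly's test, none of which were used.

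CPM was computed from total reads and the column sum. A contig entered the tests if 3 or more of the 15 libraries had 10 or more reads on it. Heated and 12° control libraries, 6 to a fit, went into glmQLFit and glmQLFTest of edgeR 4.0.16 under R 4.3.3, after TMM normalization. Standard errors are the log2 fold change over the square root of its F statistic. DESeq2 (version 1.42.0) was an alternative. Other calculations used Python 3.11.15, numpy 2.4.6, and pandas 2.3.3. Both the fits and the choice of contigs were tested on simulated data.

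The rule for the 200 contigs and the tests were chosen with earlier results of these data known. Contigs named are the 10 of lowest CV, the 3 of highest mean CPM, the shortest and the longest, the 3 of highest and the 3 of lowest log2 fold change at 25°, the 2 on either side of the CV threshold, and up to 5 in the 200 of both scales, of which there were 3. The contigs named from the set chosen without 25° fall outside this rule and were chosen after their values were seen. Alternatives covered the scaling, tool, filter, reads, threshold, pairing, and each library, temperature, or replicate number left out. The TMM-scale values per library, within and between temperatures, and of groups that do not overlap were added after seeing the data.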

Additional observations from a re-analysis of the deposited data

How the results depend on the processing

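The counts of 0 steady contigs past both thresholds were 0 under each alternative at all 4 temperatures, and so were the counts by adjusted p alone in either direction at 15°, 18°, and 21° and the count lower at 25°. The 16 steady contigs higher at 25° by adjusted p alone became 0 with library totals and 89 in a fit of all 15 libraries. They became 122 at an adjusted p below 0.10 and 0 with the replicate block, and ranged from 0 to 31 with 1 library left out. The matching shares of all contigs tested were 6.98%, 13.5%, 19.4%, and 6.06%, and 7.22% to 10.3% with 1 library left out. Beside the 16 the share was 10.3%. The median log2 fold change of 0.32 over all 200 steady contigs became -0.030 with library totals and ranged from 0.29 to 0.44 with 1 library left out. Of the 200 steady contigs, 3 remained with TMM-scaled CPM, 2 with DESeq2's size factors, 70 with a mean of at least 50 CPM, 42 with the median absolute deviation over the median, and 27 without the 25° libraries, while leaving out single libraries, other temperatures, or replicate numbers left 129 to 193. The set chosen without 18° had a median of 0.041 at 18° with a mean of at least 50 CPM. The set chosen without 21° had a median of 0.0095 with TMM-scaled CPM and 0.0046 with DESeq2's size factors. The set chosen without 25° had a median of -0.24 with TMM-scaled CPM and -0.14 with DESeq2's size factors, and 55 and 66 of its contigs lay within 10% at 25°. The CV of named contigs moved by more than 1.5 times in 19 of 25 with TMM-scaled CPM and in 18 of 25 with DESeq2's size factors, and in 5 of 225 values under the other alternatives. No cause of these changes was tested.

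The study ran its replicates on consecutive days, but the labels do not say that a replicate number stands for a day. For replicates 1, 2, and 3, a heated library's deviation from its group mean correlated with that of the 12° library of the same number at -0.56, -0.22, and 0.53 in the 15° group. The correlations were 0.55, 0.35, and -0.15 for the 18° libraries, 0.44, -0.15, and 0.72 for the 21° libraries, and -0.68, -0.25, and -0.27 for the 25° libraries. With both signs present, the numbers were not taken as pairs. With 3 pools per group, a difference of a few percent in CPM lies within the spread between pools even for the steady contigs. Several contigs can come from 1 gene, so the 200 are not 200 independent transcripts.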
